A study of Mus musculus with 2 samples.

Results

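The genes described here are 10 peptide hormone genes, Pth, Ins2, Gcg, Sst, Gast, Calca, Cck, Ghrl, Gip and Nts, chosen by symbol among the 55487 genes of the deposited matrix, in which each symbol matched a single gene. They were read as UMI counts, where a UMI tags 1 captured RNA molecule, in 9185 thymic epithelial cells that the authors placed in a sample and in 1 of 15 classes. The tested samples, 4 in number and named Hnf4dTEC, were Foxn1(cre/+), with Hnf4a(fl/fl) and Hnf4g(-/-). The 3 samples named Hnf4ctrl were likewise Foxn1(cre/+) but with Hnf4a(fl/+) and Hnf4g(+/-), so both groups carry Foxn1-cre and the controls too lack some copies of these genes. Foxn1-cre acts in thymic epithelium from early in its development, and all mice were C57BL/6; their age was not given in the sources used here. The cells were mTEClo, medullary thymic epithelial cells (mTEC) with low MHC class II, sorted without Pdpn and CD104 after magnetic removal of CD45+ cells, and all 7 samples were hash-tagged and run together in droplets with a 3' assay. Whether the samples came from different animals is not given in the labels; p-values therefore reflect the spread among these samples, which may be technical.

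Medullary thymic epithelium makes many proteins that are otherwise confined to other organs, so that T cells which react to them can be removed or diverted. Part of this comes from Aire, a nuclear protein that lets single cells transcribe scattered tissue genes, and part from mimetic cells, which adopt the program of a peripheral cell type such as a tuft or an endocrine cell. Peptide hormones are made as precursors, cut by convertases and stored in granules, and their genes are classic examples of tissue genes seen in the thymus. Hnf4a and Hnf4g are related nuclear receptors that drive genes of gut and liver.

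The samples held 1373 to 1652 cells in Hnf4dTEC and 801 to 1579 in Hnf4ctrl, with 19321440 to 23501741 and 10127838 to 25821970 UMIs, and the median cell had 13024 UMIs. Hnf4g stood at 78.1 to 88.4 counts per 1000000 UMIs (CPM) in Hnf4dTEC samples, below the 116 to 122 CPM of Hnf4ctrl samples; Hnf4a stood at 0.673 to 2.27 and 1.68 to 3.18 CPM, with overlap. Counts at the 3' end may lie outside the deleted part. Entero-hepato cells numbered 3 in Hnf4dTEC and 82 in Hnf4ctrl samples. The authors' Neuroendocrine class held the highest level of 6 of its 8 markers among the 15 classes, with Chga at 643 CPM and Stxbp5l at 3080 CPM, while Neurod1 and Syp were highest in Aire-adjacent cells. The Tuft class led in Dclk1, at 2188 CPM. Markers of other cells were detected in every sample. Thymocyte markers summed to between 2.08 and 6.52 CPM in Hnf4dTEC and between 3.37 and 4.56 CPM in Hnf4ctrl samples, and myeloid or B cell markers to between 202 and 263 CPM and between 196 and 339 CPM. The latter sum is mostly Lyz2, which stood at 1577 CPM in Aire-adjacent and 1873 CPM in Klk-rich cells. Cd79a and C1qa of that list were highest in Aire-expressing cells, at 13.7 and 18.5 CPM. Fibroblast and endothelial lists stayed under 24 CPM in each sample. Exocrine pancreas markers were at 19.1 CPM in Hnf4dTEC sample 4 and at 0.518 to 1.11 CPM in the other 3, against 2.04 to 8.64 CPM in Hnf4ctrl samples. The part of such RNA in the results was not tested.

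In build GRCm38 all 10 are protein-coding genes. Pth, the parathyroid hormone that raises blood calcium, is at 113385580 to 113388570 of chromosome 7, minus strand. Calca, which encodes calcitonin and the neuropeptide CGRP by alternative splicing, lies on the same strand of chromosome 7 from 114631478 to 114636357, and 3' counts of the whole gene cannot separate these products. Ins2, an insulin gene, also lies there from 142678656 to 142743381. Gcg, the glucagon precursor, lies on chromosome 2 from 62474530 to 62483650, and Sst, somatostatin, on chromosome 16 from 23889573 to 23890958. Ghrl, the hunger hormone ghrelin, is at 113716119 to 113719880 of chromosome 6, minus strand, where Gm26982 and Gm44033 overlap its exons on the other strand. Cck, cholecystokinin, lies on chromosome 9 from 121489824 to 121495694, and Nts, neurotensin, on chromosome 10 from 102481756 to 102490486. Gip, the incretin of the upper gut, lies on chromosome 11 from 96024545 to 96030831, and Gast, gastrin, on the same chromosome from 100334407 to 100336996. Ins2 has a near-identical copy, Ins1, so its reads may be split between them.

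Promoter sequences came from RefSeq (GRCm38.p6), which matched 9 of the 10 genes; Ins2 had no entry. The 4 printed belong to the genes with the most concentrated or most widespread expression (Pth, Ghrl, Calca) and to the one with a cAMP response element (Sst). Each runs from 250 bases before to 50 bases after the gene's start, and capitals mark TGACGTCA, the cAMP response element, or TATAAA. For Ghrl the entry with the most upstream of its starts is shown.
Pth, chr7:113388524-113388823, minus strand: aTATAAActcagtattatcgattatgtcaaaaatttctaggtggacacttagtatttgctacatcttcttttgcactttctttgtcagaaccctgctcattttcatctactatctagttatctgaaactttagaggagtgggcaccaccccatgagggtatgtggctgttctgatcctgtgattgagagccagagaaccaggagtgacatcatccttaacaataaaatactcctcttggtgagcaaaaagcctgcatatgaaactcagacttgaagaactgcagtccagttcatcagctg
Ghrl, chr6:113719862-113720161, minus strand: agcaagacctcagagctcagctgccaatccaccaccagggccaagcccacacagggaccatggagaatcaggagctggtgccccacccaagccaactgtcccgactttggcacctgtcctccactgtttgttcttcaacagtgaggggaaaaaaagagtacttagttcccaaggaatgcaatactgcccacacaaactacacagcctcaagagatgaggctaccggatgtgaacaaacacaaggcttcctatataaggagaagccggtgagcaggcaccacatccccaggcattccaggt
Calca, chr7:114636308-114636607, minus strand: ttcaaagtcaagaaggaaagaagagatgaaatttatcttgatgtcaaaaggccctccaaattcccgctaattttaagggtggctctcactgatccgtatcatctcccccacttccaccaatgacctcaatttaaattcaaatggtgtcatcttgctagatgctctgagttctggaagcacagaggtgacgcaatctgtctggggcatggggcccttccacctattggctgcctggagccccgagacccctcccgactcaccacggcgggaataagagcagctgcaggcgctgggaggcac
Sst, chr16:23890795-23891094, minus strand: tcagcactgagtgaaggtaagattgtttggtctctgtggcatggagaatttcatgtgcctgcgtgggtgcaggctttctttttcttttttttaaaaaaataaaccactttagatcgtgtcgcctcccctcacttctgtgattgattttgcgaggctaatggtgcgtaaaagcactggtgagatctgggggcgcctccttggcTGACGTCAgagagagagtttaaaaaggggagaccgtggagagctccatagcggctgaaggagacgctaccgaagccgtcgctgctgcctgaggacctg
TGACGTCA stood in the Sst promoter alone among the members, at position -48 from the start, and in 1.79% of 32851 RefSeq promoters of the same length, on both strands. TATAAA stood in the promoters of Gcg, Pth and Gast and in 13.6% of all. The HNF4-type motifs searched were AAAGTCCA, held by 1.25% of all promoters, CAAAGTCCA, which contains it and is held by 0.475%, and the DR1 repeat, held by 0.0396%. None of these 3 was found in a member's promoter, which says only that these letters are not in this window.

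Every gene of the group was detected, and each was carried by a small share of cells that held most of its RNA. Calca was the most widespread, with 13610 UMIs in 1019 cells (11.1%), of which 217 had 10 or more UMIs. Nts had 6563 UMIs in 411 cells, 97 of them with 10 or more. Ghrl had 6367 UMIs in 206 cells, 33 of them with 10 or more.

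The rest were rarer. Gast, Ins2, Cck, Gcg, Gip and Sst had between 590 UMIs (Gip) and 1813 UMIs (Gast), in 92 to 181 cells, of which 19 to 33 had 10 or more. Cells at 10 or more UMIs held 63.9% of the UMIs of Gip, 94.8% of those of Ghrl and 98.7% of those of Pth, and the other 7 genes lay between Gip and Ghrl. The cell with the most UMIs held 2.72% of all UMIs of Calca and 8.81% of those of Gip. It held 31.3% of Gcg (432 UMIs), 33.2% of Ghrl (2111 UMIs) and 31.5% of Pth (11792 UMIs), so totals of these 3 genes rest on very few cells.

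**Figure D1:**
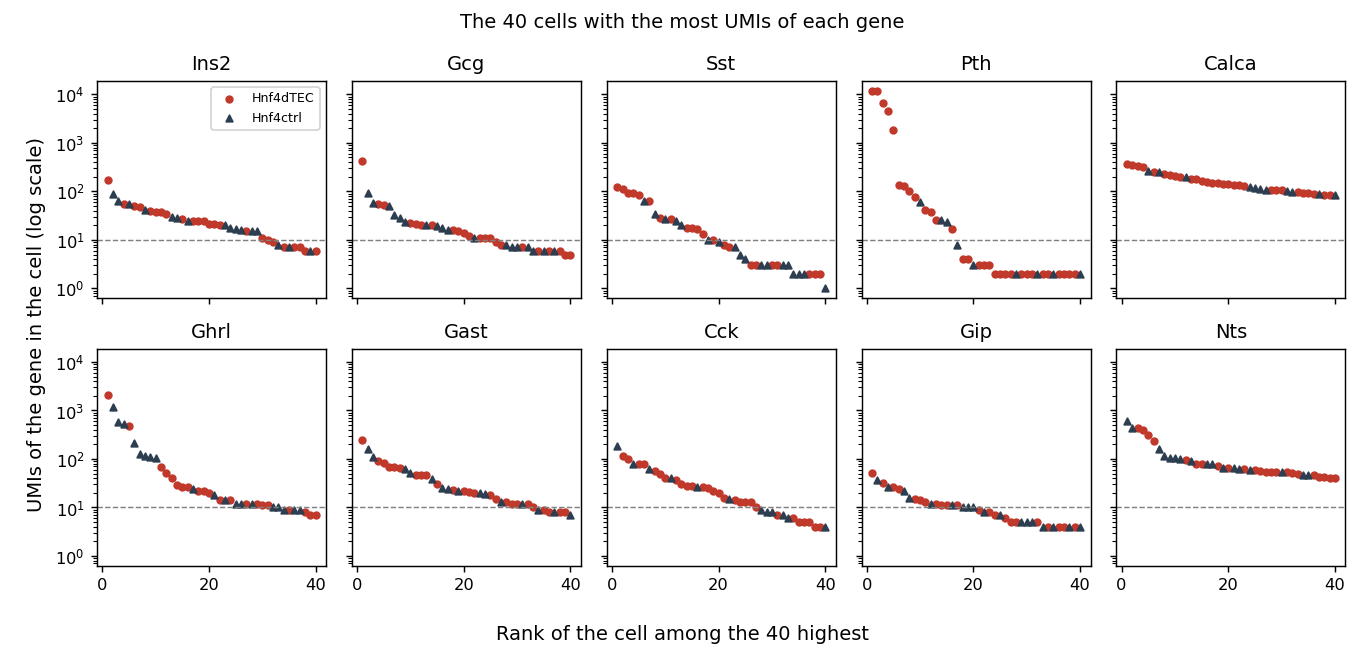
The 40 cells with the most UMIs of each gene, ranked along the x axis, with UMIs on a log scale on the y axis; circles are Hnf4dTEC cells, triangles Hnf4ctrl cells, and the dashed line marks 10 UMIs. Calca declines slowly, while 5 Pth cells stand apart above 1000 UMIs, all from Hnf4dTEC samples.

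A shallow share of positive cells is not evidence of expression in droplet data, because free RNA adds UMIs to any droplet. Of 2216 barcodes with no class and under 1000 UMIs, 3.93% had a Pth UMI, 2.62% a Calca UMI, 1.26% an Nts UMI and under 0.8% a UMI of each other member. Ghrl was seen in 9.19% of Neuroendocrine cells, at a median of 12224 UMIs, against 1.17% of Tuft cells at a median of 12186 UMIs. Calca was seen in 4.57% of Tuft, 26.4% of Neuroendocrine and 39.1% of Aire-expressing cells, the last at a median of 18154 UMIs. With each cell thinned to 5000 UMIs, the share of all cells with Calca was 6.85% and with Ghrl 1.21%, against 11.1% and 2.24% at full depth. Intervals given for shares cover counting error alone.

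By class, the genes fell into a few patterns, given as description because the classes were made from the same cells. Aire-expressing cells led for 7 of the 10 in share of UMIs. They held 79.6% of Gast, 77.4% of Cck, 75.0% of Sst, 73.7% of Nts, 64.9% of Gip, 57.2% of Calca and 49.5% of Gcg UMIs. These cells were 785 of 9185.

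Levels in Aire-expressing cells averaged 532 ± 178 CPM for Calca, 324 ± 202 CPM for Nts, 80.9 ± 47.6 CPM for Gast and 48.5 ± 58.8 CPM for Cck (SD, n = 7 samples). Sst averaged 42.8 ± 57.1 CPM there, Gcg 33.8 ± 30.4 CPM and Gip 23.5 ± 15.9 CPM. Calca and Nts had the highest means, but the SD of Nts overlaps those of Calca and Gast. The SDs of Gast, Cck, Sst, Gcg and Gip overlap too. Sst was at 0 in 3 of these samples, with 126 UMIs in its top cell.

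Ghrl was the exception, with 92.3% of its UMIs in Neuroendocrine cells at 611 ± 700 CPM, against 8.94 ± 10.9 CPM in Aire-expressing cells (SD, n = 7). Calca was the other member of note in Neuroendocrine cells, at 312 ± 210 CPM. Gcg in that class was 456 UMIs, of which 432 lay in 1 cell of Hnf4dTEC sample 3. Sst, Gast, Cck and Gip, hormones of gut and pancreatic endocrine cells, were each under 3 CPM there as pooled levels. Ins2 had more UMIs in Tuft cells than in any other class (567 of 1417, against 496 in Aire-expressing cells), yet 12 of 4118 such cells had 10 or more, and its level was higher in Aire-expressing cells, at 44.5 ± 41.1 against 10.3 ± 7.72 CPM (SD, n = 7). Ciliated cells had the highest share of cells with any Ghrl UMI (13.2%) and any Pth UMI (12.2%) among the 15 classes, at a median depth of 23527 UMIs.

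**Figure D2:**
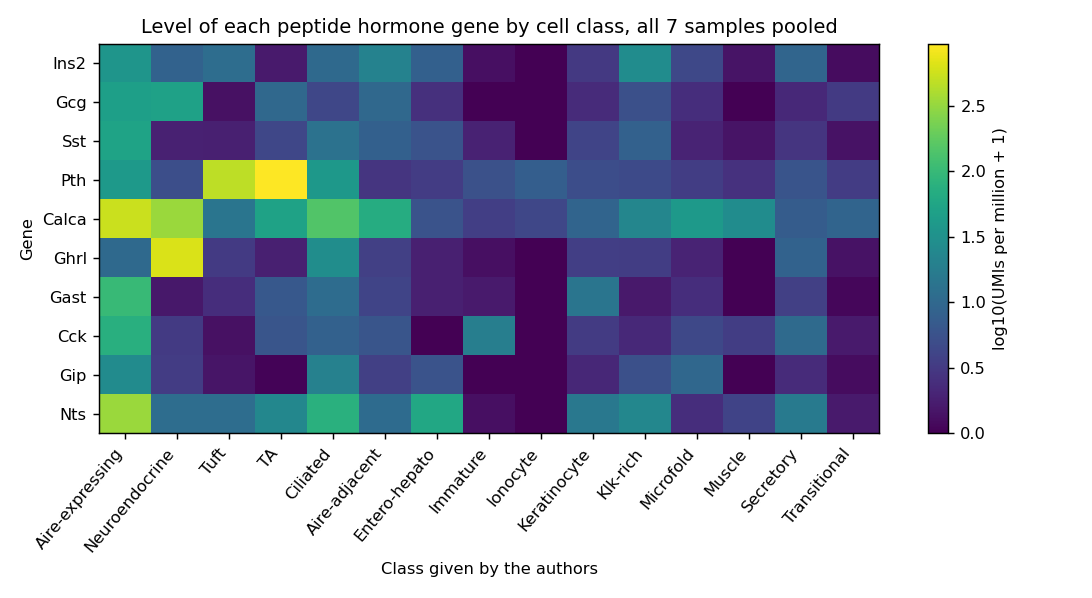
Level of each gene in each class over all 7 samples pooled, as log10(CPM + 1) in colour, genes in rows and classes in columns. Calca and Nts are high in Aire-expressing cells, Ghrl in Neuroendocrine cells, and the Pth level of Tuft and TA cells comes from 5 cells.

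Cells with 10 or more UMIs of at least 1 of the genes numbered 450 of 9185 (4.90%, exact 95% interval 4.47 to 5.36). Aire-expressing cells gave 230 of 785 (29.3%, interval 26.1 to 32.6), Ciliated cells 26 of 197 (13.2%), Neuroendocrine cells 81 of 707 (11.5%) and Tuft cells 35 of 4118 (0.850%). Of the 450 cells, 387 had a single gene of the 10 at that level, 59 had 2, 3 had 3 and 1 had 4. Calca and Nts met in 13 cells, 5.99% of the Calca and 13.4% of the Nts cells at that level. Calca and Gip met in 6 cells, 2.76% of the Calca cells and 6 of the 20 Gip cells. In Neuroendocrine cells a single pair shared a cell, Calca and Ghrl in 1 cell.

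Within Aire-expressing cells, Aire was lower in cells with a hormone gene at 10 or more UMIs than in the others in 7 of 7 samples. The values were 557, 582, 737 and 687 CPM in Hnf4dTEC samples and 412, 591 and 708 CPM in Hnf4ctrl samples with such a gene. Without one they were 831, 826, 847 and 802 CPM in Hnf4dTEC and 802, 808 and 780 CPM in Hnf4ctrl samples. Fezf2, another regulator of tissue genes in mTEC, was lower in such cells in 7 of 7 samples too. Cd80, a maturation marker, was higher in them in 3 samples and lower in 4. The cells were split by their hormone counts, and the cells with such a gene were deeper in 4 samples and shallower in 3, by median UMIs. Cells with such a gene numbered 26, 21, 47 and 50 in Hnf4dTEC and 5, 12 and 69 in Hnf4ctrl samples. How many of all genes are lower in 7 of 7 samples under this split was not counted.

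Pth was the most abundant of the genes and the most concentrated. Of its 37480 UMIs, 36324 (96.9%) lay in 5 cells with 1000 or more, which held 11792, 11521, 6610, 4580 and 1821 UMIs. All 5 came from Hnf4dTEC samples, a pair each from samples 1 and 3 and a single cell from sample 2. The authors' table placed 4 in the Tuft class and 1 in TA. A further 4 barcodes with 1000 or more Pth UMIs, 35768 in all, had no sample or class. Their genotype is not given here, and they are in no comparison.

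These 5 cells carried genes of the parathyroid gland. Casr, the calcium-sensing receptor, had 17, 11, 8, 2 and 4 UMIs in them, in falling order of Pth, and Gcm2, the transcription factor that specifies the gland, had 2, 1, 6, 0 and 2. Casr was not confined to these cells, which held 42 of its 3583 UMIs. It stood at 348 CPM in them, 26.6 CPM in all others and 92.6 CPM in the Neuroendocrine class. Chga, a granule protein, had 1494, 1213, 1101, 691 and 362 UMIs, and Gcm2 stood at 91.0 CPM in these cells against 0.143 CPM in all others. The tuft markers Dclk1, Trpm5 and Pou2f3 were at 0 in 4 of them. The remaining cell, with the fewest Pth UMIs, had 47, 7 and 4 UMIs of these and was marked as a doublet by Scrublet. Aire, Foxn1 and Krt5 were at 0 in all 5, and H2-Aa had 0 or 1 UMI, while Epcam, an epithelial marker, had 30, 37, 25, 10 and 17 UMIs. The summed level of the parathyroid list (Gcm2, Casr and Pth, all 3 detected) was 50.7 to 923 CPM in Hnf4dTEC and 29.0 to 31.7 CPM in Hnf4ctrl samples. This sum includes Pth, by which the 5 cells were chosen. Pth gave 6612 of its 7317 UMIs in Hnf4dTEC sample 1, 11589 of 12148 in sample 2, 18465 of 19049 in sample 3 and 518 of 1097 in sample 4. In Hnf4ctrl samples Pth gave 41 of 294, 52 of 369 and 203 of 819 UMIs. The sum thus largely repeats the Pth counts in Hnf4dTEC samples 1 to 3, while Pth gave the smaller part in the other samples. It is no separate sign of parathyroid cells or of a genotype difference. Whether these cells are thymic epithelium was not tested.

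Outside these cells Pth had 1156 UMIs in 453 cells, of which 416 had exactly 1. The pooled level was 39.3 CPM in Aire-expressing cells and 37.1 CPM in Ciliated cells, and between 1.67 and 6.67 CPM in the other 13 classes. The next 11 cells had 17 to 136 UMIs, and all but a TA cell were Aire-expressing or Ciliated. Of the other Tuft cells 4.38% had any Pth UMI, against 3.93% of the much shallower barcodes under 1000 UMIs.

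Per sample, Pth stood at 281, 599.8, 895 and 24.0 CPM in Hnf4dTEC samples 1 to 4, against 4.05, 4.23 and 7.86 CPM in Hnf4ctrl samples. The groups did not overlap, and how many of all genes separate in this way was not counted. In such sums, fewer cells of a type and less RNA per cell cannot be told apart. The log2 fold change was 6.32 (SE 1.23), and the edgeR quasi-likelihood test with Benjamini-Hochberg adjustment did not call it (adjusted p = 0.172). It passed in DESeq2 (adjusted p = 3.71e-07) and in edgeR without Hnf4dTEC replicate 4 (adjusted p = 0.0238). Without the 5 cells the log2 fold change was 0.85 (edgeR adjusted p = 0.964), so nearly all of the difference in level lay in those cells.

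Over all cells none of the 10 genes passed between the genotypes in edgeR, where 0.184% of 21187 genes were called. At an unadjusted p under 0.05, edgeR had 1408 of these genes, and Pth was the only member among them. DESeq2 called 233 of these genes (1.1%), with 1 member, Pth, among them. Besides Pth, log2 fold changes ran from -0.65 (Ghrl) to 1.07 (Sst). With a sample left out Ghrl ran from -3.01 (without Hnf4dTEC sample 4) to -0.15 (without Hnf4ctrl sample 3), and Sst from 0.50 (without Hnf4dTEC sample 3) to 1.66 (without Hnf4ctrl sample 3).

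In Neuroendocrine cells 3 of the genes had enough counts for the test, Ghrl, Calca and Nts, and 0 passed, where 0.389% of 11297 genes were called. Calca was the 1 member of these at an unadjusted p under 0.05, and DESeq2 called 0. For Nts it was 0.47 on the log2 scale (SE 0.73, adjusted p = 0.926 by edgeR). The other 7 were tested as CPM over samples by exact permutation, with raw p-values between 0.229 (Pth) and 0.914 (Gast) in 7 tests.

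Ghrl stood at 31.4, 27.4, 44.8 and 1632 CPM in Neuroendocrine cells of Hnf4dTEC samples, against 1083, 160 and 1299 CPM in Hnf4ctrl samples. A set of 3 Hnf4dTEC samples lay below every Hnf4ctrl sample and the remaining one above them all, with 2111 of its 2662 UMIs in 1 cell. The Hnf4ctrl levels also rested on single cells. There the top cell held 518 of 651, 107 of 165 and 1179 of 2254 UMIs in samples 1 to 3, and no fit left out only these cells. On the log2 scale the fold change was -0.94 (SE 1.2; adjusted p = 0.908 by edgeR). The log2 fold change was -2.89 without the cell of 2111 UMIs (edgeR adjusted p = 0.265) and -4.60 without Hnf4dTEC replicate 4 (SE 0.64, edgeR adjusted p = 0.0176). Without Hnf4dTEC replicate 1, 2 or 3 it lay between -0.56 and -0.54, without Hnf4ctrl replicate 2 at -1.42 and without Hnf4ctrl replicate 3 at -0.45. With no filter on low counts edgeR called it at -0.91 (adjusted p = 4.73e-15). That fit called 419 of 25748 genes (1.63%), among them Gcg, nearly all of it in 1 cell. Its small p-values are therefore not read as a result here. Without cells marked as doublets or with a mismatched hash tag the log2 fold change of Ghrl was -3.08 (edgeR adjusted p = 0.253).

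Counted as cells, 10 or more Ghrl UMIs were seen in 2 of 123, 1 of 94, 1 of 98 and 3 of 133 Neuroendocrine cells of Hnf4dTEC samples. In Hnf4ctrl samples they were seen in 2 of 49, 5 of 83 and 8 of 127. The shares were 1.63%, 1.06%, 1.02% and 2.26% in Hnf4dTEC, against 4.08%, 6.02% and 6.30% in Hnf4ctrl samples. Every Hnf4dTEC sample lay below every Hnf4ctrl sample, with means of 1.49% ± 0.579 (SD, n = 4) and 5.47% ± 1.21 (SD, n = 3). The two-sided exact permutation p was 0.0571, the smallest that 4 against 3 samples allow in this test, so the design could not reach 0.05, and it was 1 of 20 shares tested in this class. Whether the shares of other genes separate as often was not counted. The separation depended on the count required. At 5 UMIs the highest Hnf4dTEC sample was at 4.065% and the lowest Hnf4ctrl sample at 4.082%. At 20 UMIs the groups overlapped, with up to 2.26% in Hnf4dTEC samples and the lowest Hnf4ctrl sample below that (exact permutation p = 0.114). The share with any Ghrl UMI was 7.50% ± 2.78 and 10.8% ± 2.61, with overlap (exact permutation p = 0.229).

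Calca stood at 171, 328, 546 and 635 CPM in Neuroendocrine cells of Hnf4dTEC samples, against 46.6, 218 and 237 CPM in Hnf4ctrl samples. The highest 3 were Hnf4dTEC samples, and the lowest of that group lay within the range of the Hnf4ctrl samples. The log2 fold change was 1.29 (SE 0.48, unadjusted p = 0.0218, edgeR adjusted p = 0.48). With no filter on low counts edgeR called Calca at 1.30 (adjusted p = 3.09e-23), in the fit that called 419 of 25748 genes (1.63%). The share of cells with 10 or more UMIs overlapped, at 7.64% ± 2.67 and 6.52% ± 3.98 (exact permutation p = 0.686).

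Ins2 was the other gene with a share, among the 20 tested in this class, that did not overlap. Permuted samples separate fully at a rate of 0.0571, and how often the shares of other genes separate was not counted. A UMI of it was seen in 0 of 123, 1 of 94, 1 of 98 and 2 of 133 cells in Hnf4dTEC, against 1 of 49, 2 of 83 and 5 of 127 cells in Hnf4ctrl samples. The mean shares were 0.897% ± 0.637 and 2.80% ± 1.01 (SD, n = 4 and 3, exact permutation p = 0.0571). Of these 12 cells 2 had 10 or more UMIs, and a UMI of Ins2 was seen in 1.82% of Tuft cells, so these few cells set no firm difference. With no filter on low counts edgeR called Ins2 at -1.68 (adjusted p = 0.0135) and Gcg, nearly all of it in 1 cell, at 7.79 (adjusted p = 1.29e-77). These p-values come from the fit that called 1.63% of genes and are not read as a result.

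**Figure D3:**
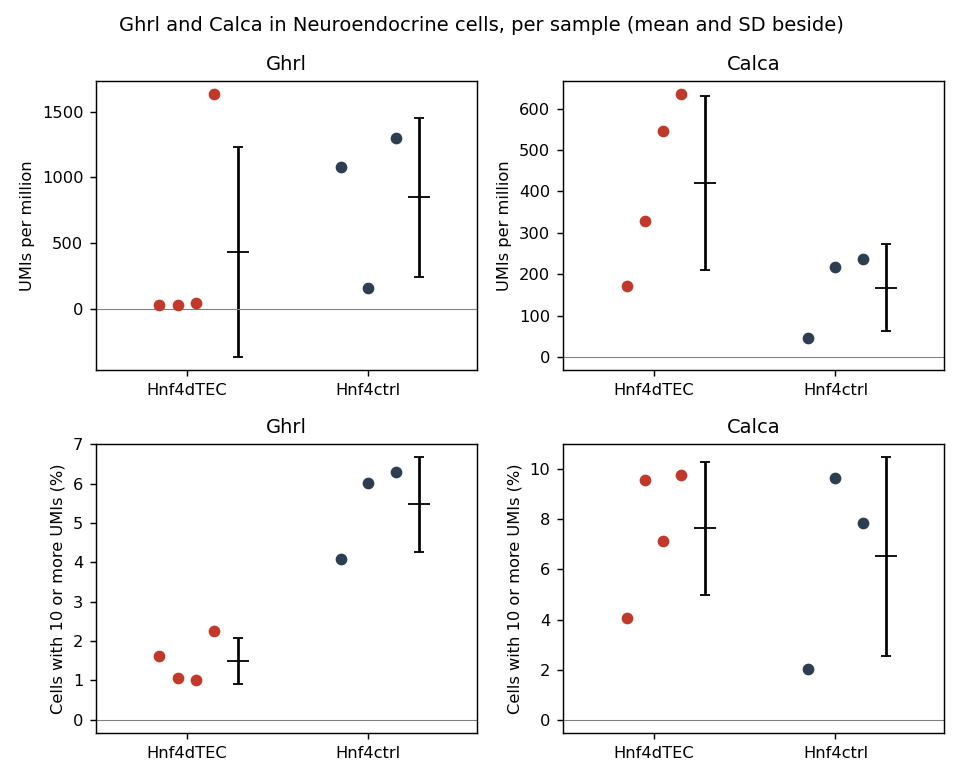
Ghrl (left) and Calca (right) in Neuroendocrine cells of each sample, as CPM (top) and as percent of cells with 10 or more UMIs (bottom); points are samples, with mean and SD beside them. Ghrl-high cells make up at most 2.26% in Hnf4dTEC and at least 4.08% in Hnf4ctrl samples, while Calca overlaps. With 20 or more UMIs required, the Ghrl shares overlap too.

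In Aire-expressing cells all 10 genes could be tested and 0 passed, where 0.0% of 12931 genes were called in edgeR, with 666 at an unadjusted p under 0.05 and 48 called by DESeq2, which called no member but gave an adjusted p to Calca and Nts alone. Ghrl was the one member at an unadjusted p under 0.05, at 0.555, 27.9, 18.9 and 11.1 CPM in Hnf4dTEC and 2.02, 0 and 2.06 CPM in Hnf4ctrl samples (log2 fold change 3.27, SE 1.15, edgeR adjusted p = 0.872). The groups overlapped through Hnf4dTEC sample 1. Gast stood at 89.4, 121, 88.4 and 126 CPM in Hnf4dTEC and at 0, 31.6 and 110 CPM in Hnf4ctrl samples (log2 fold change 0.94, SE 0.66, edgeR adjusted p = 0.995). Its log2 fold change was 0.54 without Hnf4ctrl sample 1 and 2.49 without Hnf4ctrl sample 3. Hnf4ctrl sample 1 held 28 such cells, which limits every value from it.

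In Tuft cells 5 of the genes were tested and 0 passed, where 0.0881% of 14760 genes were called by edgeR (1290 at an unadjusted p under 0.05, DESeq2 not run); Pth and Calca were at an unadjusted p under 0.05. Calca stood at 11.7, 8.25, 36.9 and 11.9 CPM in Hnf4dTEC, above 3.77, 5.17 and 6.09 CPM in Hnf4ctrl samples, without overlap (log2 fold change 1.75, SE 0.54, edgeR adjusted p = 0.368). A single cell gave 201 of the 323 UMIs of the highest sample, and how many of all genes separate in this way was not counted. The members that could be tested in other classes also gave 0 calls: 6 in Ciliated, 3 in TA and 1 in Aire-adjacent cells, where 0.0% of all genes were called, 2 in Keratinocyte (0.0799% of genes) and 1 in Secretory cells (0.0314%).

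The share of cells with 10 or more UMIs of any of the genes is given as a description, with no test. In Aire-expressing cells it was 26.8%, 23.6%, 37.3% and 29.4% in Hnf4dTEC, against 17.9%, 17.6% and 33.3% in Hnf4ctrl samples. In Neuroendocrine cells it was 7 of 123, 10 of 94, 10 of 98 and 18 of 133 cells in Hnf4dTEC, against 3 of 49, 14 of 83 and 19 of 127 cells in Hnf4ctrl samples. The groups overlapped in both classes.

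**Figure D4:**
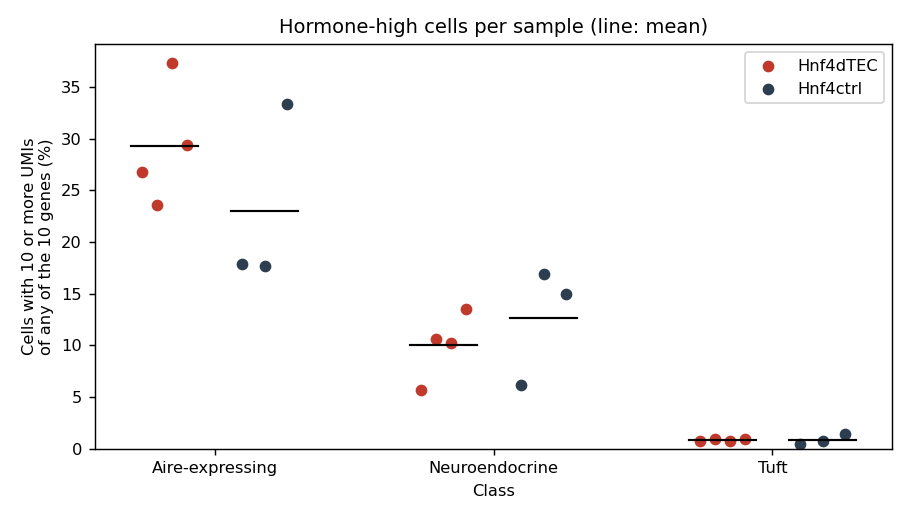
Percent of cells with 10 or more UMIs of any of the 10 genes, per sample, in the Aire-expressing, Neuroendocrine and Tuft classes; points are samples and lines group means. The genotypes overlap in all 3 classes.

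The Neuroendocrine cells with Ghrl and those with Calca differed in the other genes they carried, given as pooled levels with no test and for genes chosen after their values were seen. At 10 or more UMIs there were 22 Ghrl cells and 53 Calca cells, with 1 in both, and 633 with neither. The sets differed in genotype: 7 Ghrl cells were Hnf4dTEC and 15 Hnf4ctrl, against 34 and 19 Calca cells. In the whole class Rfx6 was at 174 CPM in Hnf4dTEC and 308 CPM in Hnf4ctrl samples, Isl1 at 128 and 182 CPM, and Cpe at 25.4 and 74.8 CPM, none called by edgeR, and the part of genotype in the pooled levels was not tested. Rfx6, a transcription factor of gut and islet endocrine cells, stood at 849 CPM in Ghrl cells, 121 CPM in Calca cells and 212 CPM in the rest. Isl1, another endocrine factor, stood at 633, 100 and 132 CPM in the same order, and Neurod1 at 195, 0 and 10.1 CPM, though in 4 of the 22 Ghrl cells. Cpe, which trims hormone precursors, stood at 379, 51.6 and 28.7 CPM. Other genes were higher in Calca cells, so the Ghrl cells did not lead throughout. In the same order Chgb stood at 198, 617 and 262 CPM, Insm1 at 338, 454 and 329 CPM, and Snap25 at 529, 775 and 599 CPM. Chga, at 1399, 570 and 624 CPM, was higher in Ghrl cells. Mboat4, which acylates ghrelin, had 0 UMIs in the 22 Ghrl cells and was not detectable at this depth.

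The genes of hormone production and response around the members gave few calls. Of 17 prohormone processing genes tested over all cells 0 rose and 1 fell, where 39 of all 21187 genes were called (0.184%), 38 of them lower. The gene that fell was Scg5, a chaperone of the convertase Pcsk2, at 58.7 ± 0.953 CPM in Hnf4dTEC (SD, n = 4) and 82.5 ± 4.91 CPM in Hnf4ctrl samples (SD, n = 3), or -0.49 on the log2 scale (SE 0.06, adjusted p = 0.0374 by edgeR). In Neuroendocrine cells Scg5 was at -0.36 and not called (edgeR adjusted p = 0.175). The part of the fewer Entero-hepato cells (3 in Hnf4dTEC, 82 in Hnf4ctrl samples) in the all-cell value was not tested. The processing list's median log2 fold change was -0.07, against 0.004 over all genes tested. Of the receptors of the members 14 of 23 were tested, of endocrine transcription factors 17 of 24, and of other peptide hormones 35 of 43, with 0 called in each and medians of -0.10, -0.13 and -0.18. In Neuroendocrine cells 0 genes of the 4 lists passed, with medians of -0.11, -0.14, -0.26 and -0.40 over 13, 5, 13 and 9 tested genes, in the same order of lists. The most abundant there were Ptprn2, Pam and Chga of the processing genes, Sort1, Insr and Sstr2 of the receptors, Insm1 and St18 of the transcription factors, and Iapp, Guca2b and Calcb of the other hormones. Iapp, the islet peptide amylin, had 11135 UMIs there, more than Ghrl or Calca.

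The genes most like each member across classes were found by Pearson correlation of log2(CPM + 1) over 15 classes, among 16813 genes with 200 or more UMIs, as a description in which points share libraries and depth. For Ghrl they were Marchf10 (0.92), Cd177 (0.88) and Slc41a2 (0.88). For Calca they were Gm20457 (0.88), Olfm1 (0.88) and Gcg (0.85), and for Gcg Rab3c (0.91), Tmem63c (0.90) and Lrrtm3 (0.90). The class level of Gcg was highest in Neuroendocrine cells, where 1 cell with 432 UMIs gave nearly all of it. The part of that cell in the correlations with Gcg was not tested. Galanin, Gal, was among the 3 of both Sst (0.93) and Nts (0.89), beside Epb42 and Siglece for Sst and Gpha2 and Prkg1 for Nts. Gast was most like Orm2 (0.95), Ly86 and Idi2, Cck like Col1a1 (0.89), Ccdc3 and Krt13, Gip like Mia (0.93), Prickle2 and Cga, and Ins2 like Sbp (0.89), Gm3052 and Wnk4. Pth, whose class levels come from 5 cells, was most like Kif23 (0.91), Hdac1 and H3c7. Between members the values ran from -0.03 (Pth and Gip) to 0.88 (Sst and Nts).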

How the data were processed

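The deposited matrix holds UMI counts per gene and droplet barcode, made by the authors; Cell Ranger 6.1.0, Seurat 4.0.2 and the build mm10 are listed in the submitters' processing notes, whereas the matrix header gives Cell Ranger 7.0.0. The authors' deposited cell table gave 9185 of 18089 barcodes a hash-tagged sample and a class; all 9185 were kept, and no barcode was shared between samples. A second library held hash tags and belongs to no group. Scrublet, in scanpy 1.11.5, scored 14629 barcodes and marked 230 annotated cells (2.50%), and in 45 cells the top hash tag was of another sample; leaving out these 271 cells was an alternative.

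For each sample, UMIs were added up over its cells, in total and per class. A class sum was used where its sample had 10 or more such cells, in classes with at least 3 such samples per genotype. These sums went into edgeR 4.0.16 (quasi-likelihood test, R 4.3.3) after filterByExpr and TMM, with Benjamini-Hochberg adjustment over all genes tested and a threshold of 0.05. The fit was tested on simulated data. SE is the log2 fold change divided by the root of its F statistic. CPM is UMIs per 1000000 without TMM, except for list genes. Log2 fold changes are Hnf4dTEC over Hnf4ctrl. Single values were compared by two-sided exact permutation of samples (scipy 1.17.1), which doubles the smaller tail, so that 35 arrangements of 4 against 3 give at least 0.0571. Shares have exact 95% binomial intervals. Thinning drew 5000 UMIs per cell and left out 511 shallower cells, 319 of Hnf4dTEC and 192 of Hnf4ctrl samples. DESeq2 1.42.0, no filter, leaving out samples or cells and a replicate block were alternatives. Gene positions came from GENCODE release M21 for GRCm38, with the gene versions of the files.

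All 10 members are named; of the lists, genes past the threshold and the 3 with the most UMIs in Neuroendocrine cells; and the 3 genes most like each member. A gene that this rule names is not reported here. The members and lists were chosen with earlier results of these data known.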

Additional observations from a re-analysis of the deposited data

Results flagged for a closer look

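Among 40 sets of 4 Hnf4dTEC values (10 genes over all cells and in 3 classes), 7 had a sample far from the other 3 by Dixon's test at its 95% critical value; chance flags about 1 in 20. They were Ghrl in sample 4, over all cells (126 CPM) and in Neuroendocrine cells (1632 CPM), Gast over all cells in sample 4 (22.1 CPM), Ins2 in Neuroendocrine cells of sample 4 (13.5 CPM), Gcg in Neuroendocrine cells of sample 3 (341 CPM), Pth in Aire-expressing cells of sample 4 (129 CPM) and Calca in Tuft cells of sample 3 (36.9 CPM). In Neuroendocrine cells 1 cell gave 2111 of 2662 Ghrl UMIs, 432 of 434 Gcg UMIs and 20 of 22 Ins2 UMIs of those samples, and in Tuft cells 1 cell gave 201 of 323 Calca UMIs.

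The 8904 barcodes without a class, used in no comparison, also held the hormone genes. They had 36823 UMIs of Pth, 8462 of Calca, 3859 of Ghrl, 3792 of Nts, 1414 of Sst, 1159 of Ins2, 1097 of Gcg, 1081 of Gast, 953 of Cck and 442 of Gip. Of the Pth UMIs 35768 lay in 4 barcodes with 1000 or more, the highest with 19754, more than in any cell with a class. Sst reached 605 UMIs in 1 such barcode, against 126 in the highest cell with a class.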

How the results depend on the processing

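Over all cells edgeR called 39 genes and 0 members. The replicate block also left out Hnf4dTEC replicate 4, which has no partner, so its values are read against the fit without that sample. DESeq2 called 233 genes, the replicate block 7 (7 without that sample and no block), the fit without Entero-hepato cells 9 and that without Aire-expressing cells 81; leaving out a sample gave 2 to 31. Members called were 1 (Pth) with DESeq2, without Hnf4dTEC replicate 4 (log2 fold change 6.71, edgeR adjusted p = 0.0238) and with the block added (6.77, edgeR adjusted p = 0.00487), and 0 to 1 with a sample left out. In Neuroendocrine cells (44 genes, 0 members) DESeq2 called 82 genes, no filter 419 with 4 members, Gcg, Ghrl, Calca and Ins2, and leaving out a sample 10 to 42 genes and 0 to 1 members; Ghrl was called without Hnf4dTEC replicate 4 (-4.60, edgeR adjusted p = 0.0176; 42 genes) and with the replicate block added (1 member, -4.34, edgeR adjusted p = 0.00511; 43 genes). In Aire-expressing cells DESeq2 called 48 genes. Samples with the same replicate number did not deviate together (correlations 0.289, 0.11 and 0.015 over all cells), so the block shares only a number. The Ghrl share difference in Neuroendocrine cells, -3.98 percentage points, ran from -4.67 to -3.56 with a sample left out (p of 0.1 or 0.133, the smallest those designs allow), was -4.66 without marked doublets and hash mismatches, -3.58 at 5 UMIs, -1.99 at 20 and -2.82 at 5 UMIs in thinned cells.

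Signs turned for members that did not pass. Over all cells, with a sample left out, log2 fold changes ran from -0.38 to 0.26 for Ins2, -0.41 to 2.14 for Gcg, -0.083 to 1.79 for Gast, -0.23 to 3.41 for Cck, -0.47 to 0.99 for Gip and -0.84 to 0.060 for Nts. Ins2 was 0.15 with the block, 0.35 without doublets and mismatches and 0.047 without Neuroendocrine cells. Gcg was -0.49 without its top cell and -0.57 without Neuroendocrine cells, where Ghrl was 0.81; Nts was 0.16 without its top cell. Without Aire-expressing cells Sst was -0.56, Gast -0.73 and Nts 0.21. In Neuroendocrine cells Nts ran from -0.46 to 0.83 and was -0.29 without its top cell. In Aire-expressing cells Pth ran from -1.54 to 2.65 (block -1.24), Ins2 from -0.63 to 1.41 (block 0.72, without doublets and mismatches 1.77, without its top cell 1.72), Gcg from -1.03 to 1.09, Cck from -0.43 to 9.72 and Nts from -0.89 to 0.22 (without its top cell 0.44). The causes were not tested. The alternatives for Aire-expressing cells, those without Aire-expressing cells or the 5 Pth cells, and those for the Ghrl share other than 5 and 20 UMIs were chosen after seeing the data.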
